A study of Drosophila melanogaster with 7 samples.

Results

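The genes MtnA, MtnB, MtnC, MtnD and MtnE were followed in single cells of genetically induced Drosophila midgut tumors. They were taken by name as 5 of the 17619 feature entries of the count files, and all 5 had UMIs (unique molecular identifiers, 1 per captured transcript molecule) in the kept cells. They were chosen by their measured level per tumor and the overlap of MtnA with MtnE in these same cells, so both are described here without a test. A further family gene, MtnF, was not among them.

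Metallothioneins are small, cysteine-rich proteins that bind copper, zinc, cadmium and other metal ions. In Drosophila their genes are switched on by metals through the zinc-finger factor MTF-1, and the midgut is a known site of their transcription. The proteins hold metal in a form that does little damage, and ferritin, an iron store made of a heavy and a light chain, is a separate part of metal handling in the same tissue.

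All libraries shared 1 genotype. In a yw background it carried the heat-shock recombinases HS-flp and HS-mflp5, the driver esg-gal4 with the reporter UAS-flybow and the oncogene UAS-RasV12, and over FRT82B a chromosome with Tub-Gal80 and another with Apc2N175K and ApcQ8. A heat shock of 2 h at 37 °C, given 2 to 3 days after eclosion, made clones that lost Gal80 and were left with only the mutant Apc and Apc2 alleles, in which esg-gal4, which is active in stem cells and enteroblasts, ran RasV12 and the fluorescent reporters. Flies were picked at 21 days post-induction or later by GFP seen through the abdomen, and no cell sort was described, so that cells of the surrounding gut may be present. Each of the libraries Tind1 to Tind6 came from 1 tumor, and Tgrp pooled 6 tumors. The authors list Tind3 as the oldest of the tumors. No normal midgut was analysed here, and every comparison was therefore between tumors or between cells of 1 tumor.

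A cell was kept when it had 100 to 2000 genes and at most 15% of UMIs from mitochondrial genes. This left 7998 cells, between 309 in Tind6 and 2922 in Tgrp, with 180582 UMIs in Tind3 and 5133789 in Tgrp at the extremes. The median UMIs per kept cell lay between 317 in Tind3 and 2383.5 in Tind4. Tind4 and Tind5 had 116 barcodes in common, against at most 3 for any other pair of libraries. Of the 651 kept Tind5 cells, 99 carried such a barcode, and they held 11 of the 44 Tind5 cells with MtnA, 1 of the 13 with MtnD and 1 of the 10 with MtnE. Doublets were not removed. Levels are UMIs of a gene per 1000000 UMIs of the cells summed (CPM). Since the 3′ protocol counts molecules, levels of different genes are not divided by length. Counting intervals cover counting error only.

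All 5 genes lie on chromosome arm 3R (FlyBase coordinates, genome release 6). MtnA stands alone at 9783407 to 9784370 on the minus strand. The other genes lie within 175 kb of each other and 10.58 Mb away from MtnA, namely MtnC at 20360308 to 20360634 (plus strand), MtnB at 20503102 to 20503746 (minus strand), MtnE at 20534021 to 20534704 (minus strand) and MtnD at 20534962 to 20535301 (plus strand). MtnE and MtnD are neighbors that face away from each other, with 257 bases between their starts. Reads that match more than 1 of these related genes could have been split or dropped in counting, which was not examined.

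MtnA was the most abundant metallothionein, MtnE followed and MtnD came next, while MtnB and MtnC were rare outside single cells. The genes together gave 12362 UMIs, of which MtnA had 71.5%, MtnE 18.2%, MtnD 6.92%, MtnB 2.27% and MtnC 1.16%. MtnA reached 1247, 378, 49.8, 352, 165 and 579 CPM in the tumors Tind1 to Tind6, and 255 CPM in Tgrp. Its mean over the individual tumors was 462 ± 426 CPM (SD, n = 6), so that the spread between tumors was nearly as large as the level. Tind1 stood highest and Tind3, the shallowest library and the oldest tumor, lowest, on 9 MtnA UMIs. The part of depth and tumor age in this was not tested.

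MtnE had 208, 163, 5.54, 219, 152 and 119 CPM in the same order of tumors, and 85.9 in Tgrp (144 ± 77.5, SD, n = 6 tumors). MtnD had 40.4, 74.0, 5.54, 147, 56.2 and 114 CPM, and 36.2 in Tgrp (72.9 ± 51.2, SD, n = 6 tumors). MtnA was above MtnE in every library and MtnE above MtnD in all but Tind3, where each had 1 UMI, yet the ranges of neighbors in this order overlapped over the tumors. MtnA made up 83.0% of the metallothionein UMIs of Tind1 but 42.4% of those of Tind4 and 44.2% of those of Tind5. By CPM the tumor with most MtnA was not the tumor with most MtnE or MtnD, which was Tind4 for both. For MtnE, Tind4 and Tind1 lay close, and 1 cell gave 222 of 486 UMIs in Tind4 and 409 of 1010 in Tind1. By share of positive cells at 300 UMIs per cell, Tind6 was highest for both genes. It had 1.83% for MtnE, on 5 of 273 cells, and 2.93% for MtnD. In whole libraries, fewer expressing cells and less RNA per cell cannot be told apart.

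**Figure D1:**
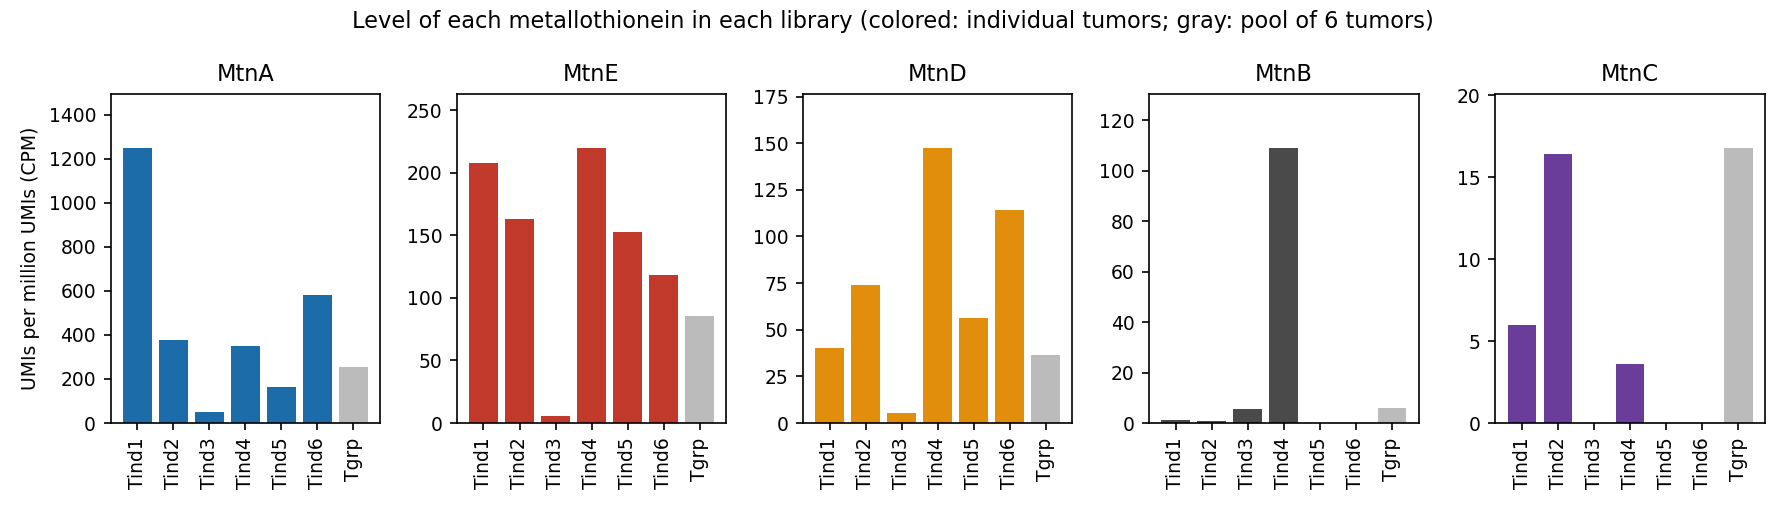
Level of each metallothionein in CPM (y axes, 1 scale per gene) in the individual tumors and, in gray, the pool of 6 tumors. MtnA ran between 49.8 CPM in Tind3 and 1247 CPM in Tind1, while MtnB was near 0 except in Tind4 with 108.8 CPM.

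MtnB and MtnC, whose proteins also bind metal ions, were present in few cells. MtnB had 108.8 CPM in Tind4 and at most 5.54 CPM in the other individual tumors, with 0 UMIs in Tind5 and Tind6 and 6.04 CPM in Tgrp. Of the 241 MtnB UMIs of Tind4, 177 came from 1 cell, which also held 54 MtnA and 45 MtnD UMIs and no MtnE. MtnC had 16.4 CPM in Tind2 and 16.75 CPM in Tgrp, and 1 cell gave all 20 of its UMIs in Tind2. In Tgrp 1 cell gave 82 of 86 MtnC UMIs, and in Tind1 1 cell gave 28 of 29. The levels of both genes thus describe single cells rather than tumors. Over all kept cells MtnB was seen in 18 and MtnC in 11.

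MtnE was also concentrated in few cells, and MtnA much less so. In Tind1, 3 cells held 50% of the MtnE UMIs, and 1 of them had 409 of the 1010, or 9.70% of all 4216 UMIs of that cell, with 33 MtnD UMIs and no MtnA. In Tind2 a single cell with 8112 UMIs held 173 of 198 MtnE UMIs, 73 of 90 MtnD UMIs, 127 MtnA UMIs and all of the MtnC. The same cell held 207 of the 211 UMIs of Jon65Aiii and 88 of the 95 of alphaTry, both digestive serine proteases of enterocytes, so the Tind2 levels of MtnE and MtnD are mostly those of 1 enterocyte-marked barcode. In Tind4 1 cell had 222 MtnE UMIs among 1966, and metallothioneins as a whole took 15.9% of its UMIs. For MtnA, by contrast, 50% of the Tind1 UMIs were spread over 53 cells and the richest cell, with 154 UMIs, held 2.54%.

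To compare libraries at equal depth, 300 UMIs were drawn from each cell, which left out 304 shallower cells (181 of Tind3, 87 of Tind5 and 36 of Tind6). A MtnA UMI was then found in 293 of 2065 Tind1 cells, or 14.2% (exact 95% interval 12.7 to 15.8%). The share was 9.52% in Tind6, 6.75% in Tind4, 4.61% in Tind2, 3.55% in Tind5 and 0.948% in Tind3, where it rested on 2 of 211 cells, and 4.72% in Tgrp. Over the tumors it averaged 6.60 ± 4.72% (SD, n = 6), against 15.7 ± 10.8% with all UMIs counted. The order of the tumors at the top and bottom was that of the levels. An even level of MtnA in every cell would have given 31.2% of positive cells in Tind1 and 12.4% on average, so that MtnA was spread less evenly than 1 level per tumor would give.

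MtnE was found in 1.13 ± 0.731% of cells at 300 UMIs and MtnD in 1.01 ± 1.03% (SD, n = 6 tumors). For MtnE this was 34 cells of Tind1, 13 of Tind4, 37 of Tgrp and 6 or fewer of each other tumor, with none in Tind3. For MtnD, 2.93% of Tind6 cells (8 of 273) were positive, and 1.04% or fewer in each other tumor. One even level would have given 4.22% for MtnE and 2.15% for MtnD. MtnA was thus found in more cells than MtnE or MtnD in every library, while the shares of MtnE and MtnD overlapped over the tumors.

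MtnA and MtnE were found together in more cells than their separate shares gave, while most MtnA cells had no MtnE. At 300 UMIs per cell, 48 cells of the 7 libraries had both, against 8.37 expected from the product of the shares within each library, a ratio of 5.74. In Tind1 20 cells had both against 4.82 expected, in Tind4 5 against 0.878, in Tind2 2 against 0.231, in Tind5 2 against 0.213, in Tind6 1 against 0.476 and in Tgrp 18 against 1.75. The number of cells with both was above the expected in every library with MtnE-positive cells, but it was 2 or fewer in Tind2, Tind5 and Tind6. The ratio averaged 6.00 ± 3.06 (SD) over the 5 tumors that gave one, and 3.12 ± 1.98 over the 6 tumors when all UMIs were used, where deeper cells have more of every gene.

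Of the 100 MtnE-positive cells 48.0% had MtnA, and of the 572 MtnA-positive cells 8.39% had MtnE. The same 48 cells are counted in both shares, which differ only because MtnA was found in more cells. The cells with both had a median of 1367 UMIs and 528.5 genes, those with MtnA alone 1514.5 UMIs and 577.5 genes, those with MtnE alone 1346 UMIs and 490 genes, and those with neither 1269 UMIs and 480 genes. Within libraries the order of depth varied. Cells with both had 2133.5 UMIs against 1918 with MtnA alone in Tind1 and, on 2 cells, 4563 against 1160 in Tind2, but 789 against 1257 in Tgrp. When the expected number was taken within each library and cluster, a choice made after seeing the data, it was 13.2 and the ratio 3.63.

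Strong expression showed both patterns side by side. Of 223 cells with 10 or more MtnA UMIs, 163 were in Tind1, 58 had any MtnE and 146 had no UMI of another metallothionein. Of 34 cells with 10 or more MtnE UMIs, 27 had MtnA, 24 had MtnD and 3 had no other metallothionein. Cells with 10 or more UMIs of both MtnA and MtnE numbered 16. Among the 10 cells with most MtnA, 9 were in Tind1 and 8 had no other member, whereas the 9 cells with 40 or more MtnE UMIs all had MtnD and 8 had MtnA. MtnA and MtnE thus shared cells without being confined to the same ones.

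**Figure D2:**
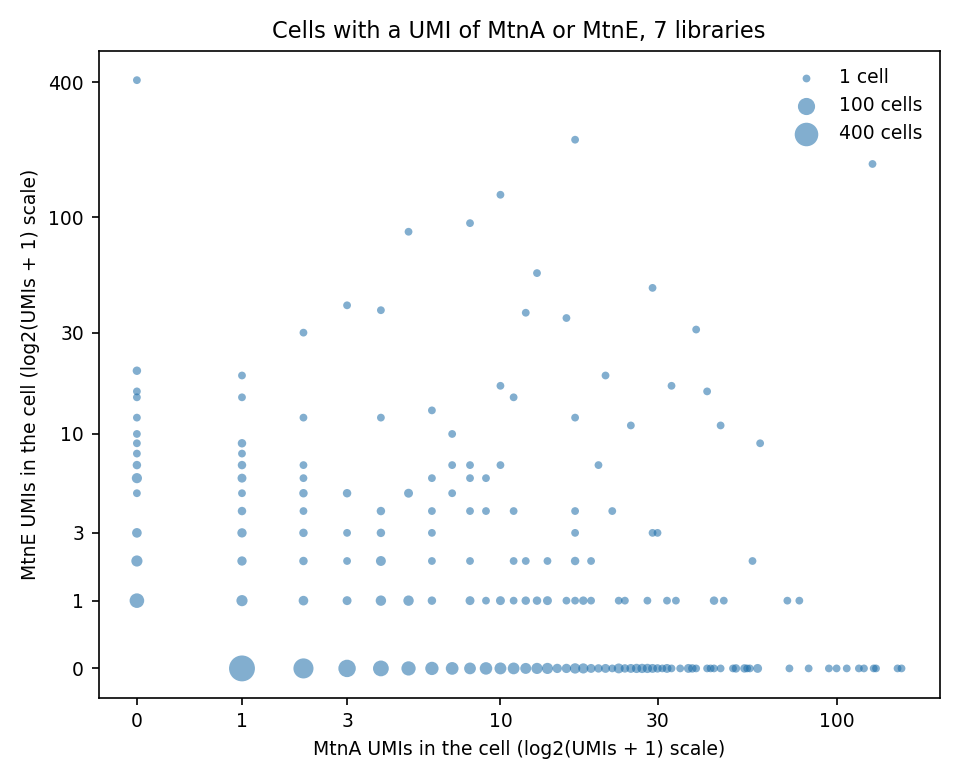
MtnA UMIs (x axis) and MtnE UMIs (y axis) per kept cell on a log2(UMIs + 1) scale, with the size of a point giving the number of cells. Of the 34 cells with 10 or more MtnE UMIs, 27 had MtnA, and most of the 223 cells with 10 or more MtnA UMIs lie on the MtnA axis.

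The same count was made for MtnD with MtnE, its neighbor on the chromosome, and for MtnD with MtnA. At 300 UMIs, 24 cells had MtnD and MtnE against 1.02 expected, a ratio of 23.6. The cells with both were 5 in Tind1 (0.329 expected), 3 in Tind4 (0.135), 2 in Tind2 (0.0113), 2 in Tind5 (0.0532), 2 in Tind6 (0.147) and 10 in Tgrp (0.342). MtnA and MtnD were together in 24 cells against 5.69 expected, a ratio of 4.22, which was 1.76 in Tind1 on 5 cells. Every library with cells of both genes exceeded the expected number for both of these pairs, on 11 or fewer cells each.

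**Figure D3:**
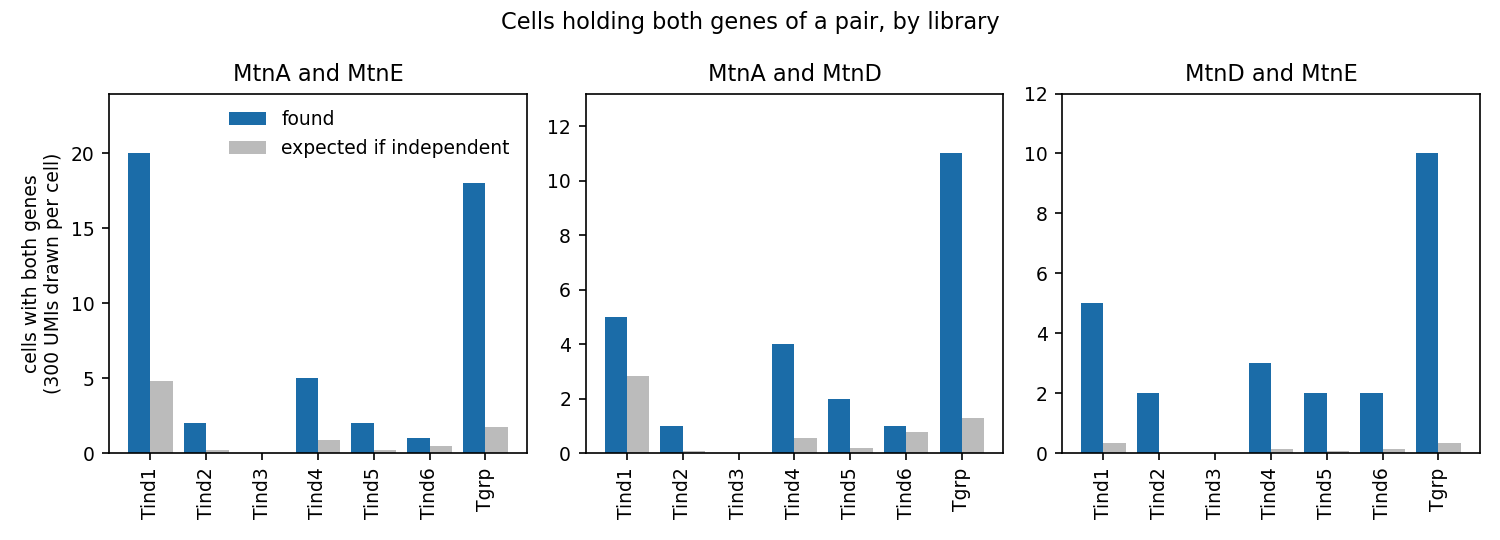
Cells with both genes of a pair per library after a draw of 300 UMIs per cell, as found (colored) and as the product of the shares of both genes in that library gives (gray). For MtnA with MtnE the sums over the 7 libraries were 48 found and 8.37 expected, and for MtnD with MtnE 24 found and 1.02 expected.

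Of all kept cells, 1594 (19.9%) had a UMI of at least 1 metallothionein. Exactly 1 gene was seen in 1327 cells, 2 genes in 180, 3 in 77, 4 in 7 and all 5 in 3. The 4 cells with 10 or more MtnB UMIs all had MtnA and MtnD, and the 3 with 10 or more MtnC UMIs all had MtnD. Cells rich in the rare members were thus cells with several members.

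Cells were clustered without the 5 genes into 13 clusters, and the share of positive cells at 300 UMIs is given for each cluster as a description. MtnA was most frequent in cluster 8 (385 cells, led by CG3868, sel, scf and genes of the endoplasmic reticulum such as the chaperone Hsc70-3), with 64 of 376 cells or 17.0% (exact 95% interval 13.4 to 21.2%), and in cluster 1 (1332 cells, led by CG32444 and lncRNA:CR44526), with 211 of 1274 cells or 16.6% (14.6 to 18.7%). The intervals of these clusters overlapped. Cluster 1 held 16.6% of the cells at 300 UMIs, 36.9% of those with MtnA, 25.0% of those with MtnE and 32.9% of those with MtnD. An enterocyte-like cluster, named on 8 of 14 markers, had 9.83% MtnA-positive, 3.00% MtnE-positive and 1.83% MtnD-positive cells. It also held 212 of 280 MtnB UMIs and 107 of 143 MtnC UMIs.

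A cluster of 31 enteroendocrine-like cells, the hormone-secreting cells of the gut (10 of 14 markers), had MtnE in 4, MtnD in 5 and MtnA in 5 cells at 300 UMIs. Its summed levels were 1413 CPM for MtnE, 1119 CPM for MtnD and 471 CPM for MtnA. Both neighbor genes thus exceeded MtnA there in summed level, but not in the number of positive cells. Low shares were found in the clusters with raised progenitor markers. Cluster 4 (4 of 10 stem cell and enteroblast markers and 10 of 14 dividing-cell markers) had 2.69% MtnA-positive cells, 1 of 707 cells with MtnE and 0 of 707 with MtnD, for which 3 counts of the total, the limit a count of 0 allows, are 0.424% of cells with a UMI (exact 95% upper limit 0.52%). Cluster 5 (4 of 10 and 3 of 14 markers of the same lists) had 1.81% MtnA-positive cells.

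The lowest MtnA share was 1 of 379 cells, or 0.264%, in cluster 7, which is led by CG5773 and lncRNA:CR43855 and also holds the cytokine gene upd2 among its leading genes. Its cells had a median of 1346 UMIs, against 1351 in cluster 1, and MtnE was found in 2 of 379 and MtnD in 0 of 379 of them. No cell type known to lack these genes was identified, so the share of cells given a UMI by free RNA was not measured, and the share in cluster 7 is the lowest level against which the others can be set.

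Levels by cluster varied widely between tumors. MtnA in cluster 1 averaged 1078 ± 1265 CPM over the 6 tumors (SD), with a lowest value of 198 and a highest of 3449 CPM, and 559 CPM in Tgrp. In the enterocyte-like cluster it averaged 1002 ± 953 CPM and in cluster 5 41.6 ± 32.8 CPM (SD, n = 6). The spread between tumors thus covered the difference between cluster 1 and the enterocyte-like cluster. Cluster borders depended on rounding in the arithmetic. When the same clustering was run with other arithmetic kernels, chosen after seeing the data, 90.1% of cells stayed with most of their cluster (adjusted Rand index 0.78), and the MtnA share was 17.6% in the cluster led by CG32444, 17.4% in that led by CG3868 and 0.26% in that led by CG5773.

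**Figure D4:**
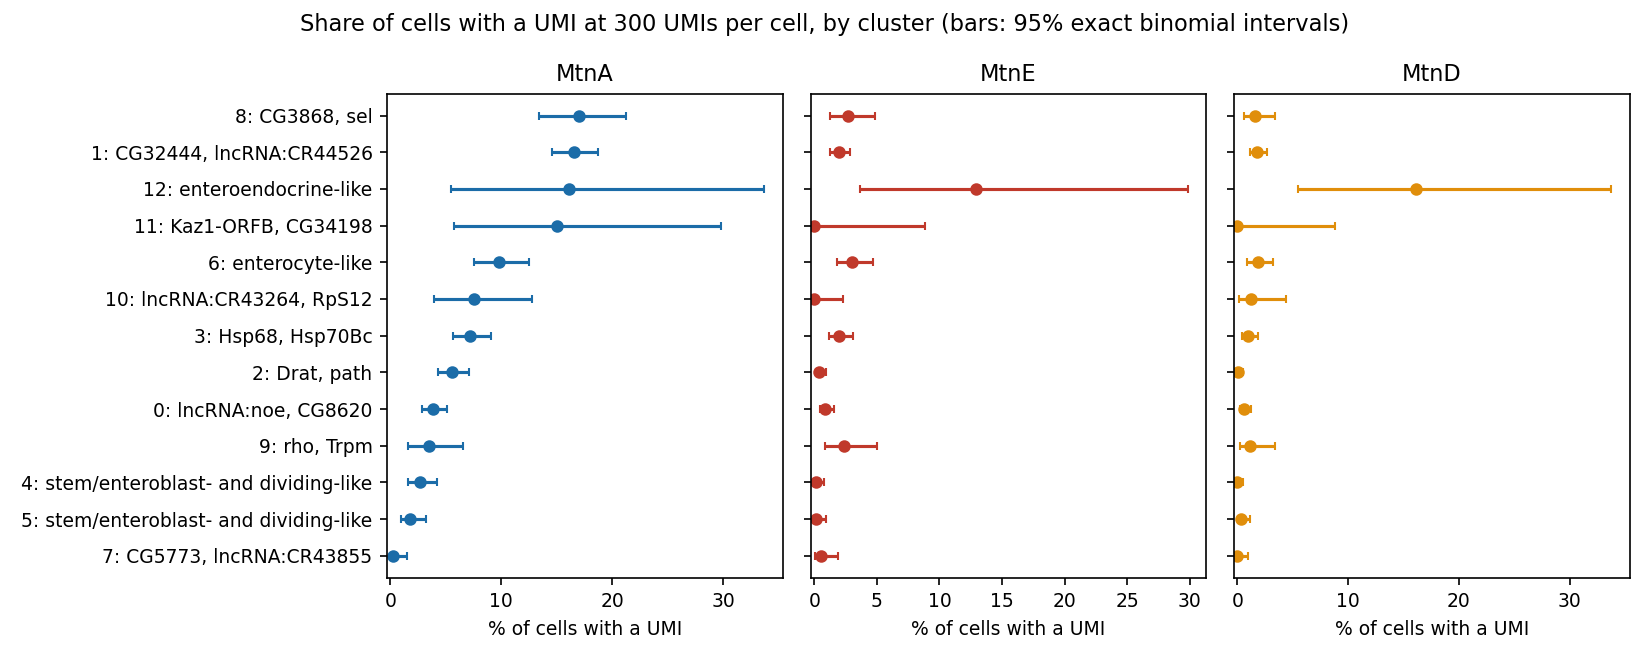
Percent of cells with a UMI of MtnA, MtnE or MtnD (x axes, 1 scale per gene) at 300 UMIs per cell in each of 13 clusters, with exact 95% binomial intervals. Clusters 8 and 1 were at 17.0% and 16.6% for MtnA, while cluster 7 was at 0.264%.

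The genes whose level went along with each metallothionein were sought over 66 sums of UMIs by library and cluster. Pearson's r of log2(CPM + 10), after subtraction of each library's mean, was highest with MtnA for Fer1HCH (0.70) and Fer2LCH (0.70), the ferritin heavy and light chains, Xbp1 (0.68), a factor of the unfolded protein response, Ald1 (0.66), a glycolytic aldolase, and MtnE (0.65). With the second clustering Gapdh2, a glycolytic enzyme, came first (0.72, against 0.65) and MtnE 13th, while Fer2LCH, Xbp1 and Fer1HCH stayed among the first 5 genes. For MtnE and MtnD the nearest gene among 2629 was the other of the pair with either clustering (0.86 and 0.84). After it came Pebp1 (0.69), CG13315 (0.69), CG44008 (0.68) and Ssk (0.68) for MtnE, and Ssk (0.64), CG44008 (0.64), Argk1 (0.63) and MtnA (0.61) for MtnD. Ssk is a membrane protein of the smooth septate junction that seals the midgut epithelium. The sums share libraries and depth, and no p is given.

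MtnA-positive cells were next compared with MtnA-negative cells of the same tumor, a comparison the choice of genes did not use except for MtnE, which is not read in it. Both ferritin chains and MtnD were higher in MtnA-positive cells. Among the lower genes were 3 of 9 tested stem cell and enteroblast markers, the dividing-cell gene string and the receptor gene Egfr. The markers were Delta (lower in 5 of 5 tumors), esg (4 of 5) and E(spl)m3-HLH (2 of 5). Classes were set by the draw of 300 UMIs, and all UMIs of each class were then summed per tumor in the 5 tumors with 10 or more cells in each class (293, 41, 52, 20 and 26 positive cells in Tind1, Tind2, Tind4, Tind5 and Tind6). Of 4348 genes tested, 51 were higher (1.17%) and 49 lower (1.13%) at an adjusted p under 0.05 by edgeR's quasi-likelihood test with tumor as a block. The median log2 difference of all genes was -0.10. Median UMIs per cell were 1930 against 1715.5 in Tind1, 1160 against 1077.5 in Tind2, 2282.5 against 2393 in Tind4, 781.5 against 694.5 in Tind5 and 517 against 540 in Tind6, for MtnA-positive against MtnA-negative cells.

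MtnD stood at 76.2 CPM in MtnA-positive and 33.9 in MtnA-negative cells of Tind1, 1160 and 12.2 in Tind2, 1332 and 60.6 in Tind4, 993 and 23.5 in Tind5, and 187 and 112 in Tind6. Within every tumor the positive cells were higher, although the ranges of the classes over the tumors overlapped, and in Tgrp they had 283 CPM against 23.0. The log2 difference was 3.56 ± 0.29 (SE), with an adjusted p of 1.78e-31 by edgeR, which here pools the spread over all genes. With edgeR's robust fit, which pools the spread of outlying genes less, the adjusted p of MtnD was 0.325. Without each tumor's cell richest in metallothioneins the log2 difference of MtnD was 2.44. The exact permutation test over the 5 tumors gave p = 0.0625, the smallest it allows. MtnC was also called (3.64, adjusted p = 3.65e-05 by edgeR) but was higher in 2 tumors and lower in 1, with an adjusted p of 0.76 in the robust fit. MtnB did not pass the filter on low counts.

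Ferritin differed in all 5 tumors. The light chain gene Fer2LCH had 4213, 3327, 2730, 5198 and 7306 CPM in MtnA-positive cells of Tind1, Tind2, Tind4, Tind5 and Tind6, against 1372, 1356, 1319, 1890 and 1980 CPM in MtnA-negative cells. The heavy chain gene Fer1HCH had 5008, 2899, 2995, 3095 and 5854 CPM in positive cells, against 1662, 1212, 1244, 1427 and 1761 CPM in negative cells. For both genes the classes did not overlap over the tumors, and Tgrp had the same order (2128 against 1280 CPM, and 2595 against 1268 CPM). The log2 differences by edgeR were 1.21 ± 0.22 for Fer2LCH (SE, adjusted p = 5.42e-06) and 1.15 ± 0.22 for Fer1HCH (SE, adjusted p = 2.55e-05). Without the tumor block the adjusted p were 0.113 and 0.117. These were the only 2 called genes of a list of 34 metal-handling genes, 17 of which were tested (2 higher, 0 lower, median log2 difference 0.05 against -0.10 for all genes). MTF-1 was at 0.47 (adjusted p = 0.599), the copper importer Ctr1A at 0.12 and the copper- and zinc-binding superoxide dismutase Sod1 at -0.06.

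Other genes higher in MtnA-positive cells of every tumor tested were Bace, an aspartic protease (498 CPM against 36.7, log2 difference 3.80), CG3868 (1.90), lncRNA:CR44526 (1.60), CG13321 (1.22), CG16995 (1.22) and mr, a subunit of the anaphase-promoting complex (1.13, adjusted p = 0.0364 by edgeR). Of these, 83 of the 97 Bace UMIs of Tind2 were in the single metallothionein-rich cell described above. The log2 difference of Bace was 2.62 without Tind2 and 1.59 without the cell richest in metallothioneins of each library, and Tgrp had 26.75 CPM in MtnA-positive against 24.6 in MtnA-negative cells. For CG3868, lncRNA:CR44526 and mr the direction in Tind2, Tind5 and Tind6 rested on few UMIs. MtnA-positive cells of these tumors held 1, 3 and 1 UMIs of CG3868, 2, 1 and 1 of lncRNA:CR44526, and 2, 1 and 3 of mr. DESeq2 gave no adjusted p for these genes. CG32444, the leading gene of cluster 1, was higher in 3 of 5 tumors (2.08), and Roc2 did not pass the test (0.65, adjusted p = 0.418).

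Among the lower genes, the receptor gene Egfr had 24.5 CPM in MtnA-positive and 109 CPM in MtnA-negative cells (means of 5 tumors, log2 difference -1.86, adjusted p = 0.000119 by edgeR). Delta, the Notch ligand of intestinal stem cells, had 62.6 and 194 CPM (-1.44, adjusted p = 0.00155), and string (stg), the Cdc25 phosphatase that starts mitosis, 86.8 and 172 CPM (-1.42, adjusted p = 0.0024). The chromatin decondensation factor Df31 had 155 and 377 CPM with no overlap between the classes (-1.38, adjusted p = 0.000106). The rest were CG9021 (-1.53), caz (-1.48), hoip (-1.45), the Slit receptor robo2 (-1.33), the adenine nucleotide translocase Ant2 (-1.30) and the Snail factor sna (-1.29, adjusted p = 0.0203). In Tgrp, which was not in the fit, 3 of these genes lay the other way, with 84.1 CPM in MtnA-positive against 62.6 in MtnA-negative cells for Egfr, 164 against 151 for stg and 95.5 against 92.4 for hoip. Egfr, CG9021 and caz had 0 UMIs in the MtnA-positive cells of Tind5 and Tind6, and Egfr had 2 in those of Tind4. DESeq2 gave no adjusted p for Egfr, CG9021 and caz. Leaving out Tind1 took the count of called genes to 62 and leaving out Tind4 to 44, and 11 of 23 and 14 of 26 of the named called genes that were still tested kept their call. With the Tind5 cells that share a barcode with Tind4 left out, the count was 82.

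Of 10 stem cell and enteroblast markers, 9 were tested and 3 were lower (Delta, E(spl)m3-HLH and esg, at -1.05), with a median of -0.62 against -0.10 for all genes. In Tind5, esg (292 against 264 CPM) and E(spl)m3-HLH (117 against 102 CPM) were higher in MtnA-positive cells. E(spl)m3-HLH had 0 UMIs in both classes of Tind4 and Tind6. Tgrp had only slightly lower values in MtnA-positive cells for all 3 markers. They were 138 against 146 CPM for Delta, 202.5 against 213 for esg and 49.7 against 52.8 for E(spl)m3-HLH. The summed level of this list was lower in MtnA-positive cells in 5 of 5 tumors, with 281, 424 and 916 CPM (lowest, median, highest) against 590, 957 and 1124 CPM. Of 14 enterocyte markers, 6 were tested and 3 were higher (alphaTry, Jon65Aiv and Jon65Aiii), with a median of 2.53, and these proteases were high only in Tind2 and Tind5. DESeq2 called 0 of the 6 (adjusted p = 0.34, 0.314 and 0.479 in the same order). With edgeR's robust fit the adjusted p was 0.347 for alphaTry, 1.05e-30 for Jon65Aiv and 0.768 for Jon65Aiii. The summed enterocyte list was higher in positive cells in 5 of 5 tumors (793, 1186 and 6516 CPM against 745, 845 and 936 CPM), with Jon99Ci, Jon99Cii and LManVI at 0 in positive cells. Enteroendocrine markers summed to 0, 41.5 and 140.5 CPM against 33.7, 122 and 550 CPM (higher in 2 of 5 tumors, 9 of 14 markers at 0 in positive cells), and visceral muscle markers to 2.68 CPM against 21.0 CPM as medians. The hemocyte markers Hml, NimC1, srp and eater were at 0 in positive cells. The part of these cell types in the differences was not tested.

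Of the remaining lists, dividing-cell genes had 1 lower of 12 tested (stg, list median -0.59), oxidative stress genes 1 higher of 17 (Prx6c, median -0.07) and respiratory chain genes 1 lower of 67 (ATPsynC, median -0.26). Heat shock genes (12 tested, median -0.28) and low-oxygen genes (8 tested, median -0.02) had 0 called by edgeR, 0 by DESeq2 and 0 at an unadjusted p under 0.05. Of 12 glycolysis genes (median 0.31) edgeR called 0 and DESeq2 1, with 2 at an unadjusted p under 0.05 by edgeR.

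Since the draw of 300 UMIs leaves cells with few MtnA UMIs in the negative class, classes were also set from all UMIs, with each positive cell set beside the negative cell of the same tumor nearest in depth. This comparison was chosen after seeing the data. It held 619, 114, 190, 44 and 57 cells of each class in Tind1, Tind2, Tind4, Tind5 and Tind6. Of 3206 genes tested 88 were higher (2.74%) and 36 lower (1.12%), with 9 higher and 0 lower without Tind4 and 23 higher and 5 lower without Tind1. MtnD had 49.6, 354, 410.5, 358 and 172 CPM in MtnA-positive cells and 27.5, 4.59, 50.1, 36.2 and 0 CPM in MtnA-negative cells, higher in every tumor. Its log2 difference was 2.48 ± 0.38 SE (adjusted p = 0.00111 by edgeR, 0.044 with the robust fit). Fer1HCH averaged 2902 CPM against 1132 CPM with no overlap (1.22, adjusted p = 0.00301), and Fer2LCH was at 1.10 (adjusted p = 0.00847 by edgeR, 0.0669 with the robust fit). Without Tind4 the adjusted p was 0.135 for MtnD and 0.107 and 0.158 for Fer1HCH and Fer2LCH, and without Tind1 it was 0.06 and 0.106 for the ferritin genes.

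In these depth-matched cells 5 of 12 glycolysis genes were higher and 0 lower, with a list median of 0.54 against -0.02 for all genes. They were Pgi (1.15), Pfk (0.88), Gapdh2 (0.73, 1333 CPM against 791 CPM with no overlap), PyK (0.69) and Eno (0.60). For Pgi the adjusted p was 0.032 by edgeR, 0.103 with its robust fit and 0.145 by DESeq2. Pgi had 197 CPM in MtnA-positive against 325 in MtnA-negative cells of Tind5. Of 14 metal-handling genes tested 3 were higher, the third being the iron regulatory protein gene Irp-1B (0.91, adjusted p = 0.0323 by edgeR and 0.0662 by DESeq2). MTF-1 was not called (0.89, adjusted p = 0.0947 by edgeR and 0.2 by DESeq2). It had 89.1 CPM against 31.5 CPM, higher in 5 of 5 tumors with no overlap, but 49.3 against 47.7 CPM in Tgrp. Alas, which makes the first product of heme synthesis, was higher (1.44), as were CG14302 (2.19) and the lysozyme gene LysX (1.48). Lower genes included the growth regulator Myc (344 CPM against 595 CPM, -0.95, adjusted p = 0.007), rols (-1.58), Cpr51A (-1.48, but 58.1 against 53.7 CPM in Tgrp), rdog (-1.48), Df31 (-1.01) and Egfr (-0.94, adjusted p = 0.0271 by edgeR and 0.062 by DESeq2, with 76.8 against 64.6 CPM in Tgrp). Without Tind4 Myc and Df31 lost their calls (adjusted p = 0.193 and 0.202 by edgeR), and without Tind1 Df31 did (0.0765). The GFP reporter entry Cd8a-EGFP was also lower in 5 of 5 tumors (means of 77 CPM against 163 CPM, -1.004). Its adjusted p was 0.00786 by edgeR and 0.00303 by DESeq2. In Tind6 this rested on 0 against 2 UMIs and in Tind5 on 3 against 9, and Tgrp had 46.3 against 50.7 CPM. Without Tind4 no lower gene was called. The part of cells outside the marked clones in this was not tested. Enterocyte markers again summed higher in positive cells in 5 of 5 tumors (788, 942 and 2917 CPM against 578, 768 and 849 CPM), while the stem cell and enteroblast list was higher in 2 of 5. Of 8 tested markers of that list 0 were called by edgeR and 0 by DESeq2 (3 at an unadjusted p under 0.05 by edgeR). The median mitochondrial percent per cell was 4.08 against 5.94 in Tind4 and 5.49 against 9.41 in Tind6, and slightly higher in MtnA-positive cells of the other tumors compared. Their part in these values was not tested.

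MtnE-positive cells were too few at 300 UMIs in all tumors but Tind1 (34 cells) and Tind4 (13 cells). In these 2 tumors 5714 genes were tested, and 10 were higher (0.175%) and 8 lower (0.14%) in MtnE-positive than in MtnE-negative cells. MtnD had 609 CPM against 27.8 in Tind1 and 3239 against 98.2 in Tind4, and 1022 against 26.0 in Tgrp. Its log2 difference was 4.52 ± 0.45 SE (adjusted p = 1.07e-19 by edgeR, 5.72e-19 with the robust fit). The robust fit still shares the spread among genes. Without the tumor block the adjusted p of MtnD was 0.677. In Tind1 1 cell with 409 MtnE UMIs held 33 of the 64 MtnD UMIs of the positive class. In Tind4 the cells with 222 and 126 MtnE UMIs held 36 and 52 of the 112. MtnB was called (2.69, adjusted p = 9.49e-04) but was higher in 1 tumor and lower in the other, and its log2 difference was -0.64 without the richest cell of each tumor, while MtnC was at 2.86 (adjusted p = 0.633).

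Besides MtnD, the genes higher in both tumors were CG14645 (4.01), CG16898 (2.35), CG14302 (2.24), CG3868 (2.17) and lncRNA:CR44526 (1.83). DESeq2 did not call CG16898 (adjusted p = 0.0812) and lncRNA:CR44526 (0.28), and in Tgrp CG14645 had 510.9 CPM in MtnE-positive against 665 in MtnE-negative cells. The lower genes included Egfr (-4.34), Cpr51A (-3.89), the chromatin protein gene HmgD (-2.61), Df31 (-2.41) and the amino acid transporter gene path (-2.17). Delta had 0 UMIs in MtnE-positive cells against 886 in MtnE-negative cells, which put it at least 5.95-fold lower (3 counts over the class as the floor). None of these 6 lower genes was called by DESeq2, where the adjusted p was 0.45 for Egfr, 0.928 for Cpr51A, 0.312 for HmgD, 0.23 for Df31, 0.0737 for path and 0.999 for Delta, and Egfr had 75.7 against 63.6 CPM in Tgrp. Fer1HCH was at 1.35 (adjusted p = 0.714) and Fer2LCH at 1.19 (adjusted p = 0.769), and of 22 metal-handling genes tested 0 were called by edgeR and 0 by DESeq2 (2 at an unadjusted p under 0.05 by edgeR), with a median of 0.24 against -0.28 for all genes.

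The depth-matched comparison, also chosen after seeing the data, took in 98, 11, 32, 10 and 13 MtnE-positive cells of Tind1, Tind2, Tind4, Tind5 and Tind6 with as many MtnE-negative cells. Only 368 genes passed the filter on low counts, and 29 were higher (7.88%) and 4 lower (1.09%). MtnD had 287, 3743, 1741, 1879 and 575.5 CPM in MtnE-positive cells, against 0, 48.4, 87.7, 0 and 0 CPM in MtnE-negative cells, so that every positive class lay above every negative class (log2 difference 5.58 ± 0.48 SE, adjusted p = 2.98e-05 by edgeR). The ferritin genes were likewise without overlap, Fer1HCH with 3881 CPM against 1219 CPM (1.90 ± 0.15 SE, adjusted p = 2.09e-05) and Fer2LCH with 4545 CPM against 1422 CPM (1.84 ± 0.17 SE, adjusted p = 5.26e-05). In Tgrp the values were 756 against 11.3 CPM for MtnD, 2235 against 1484 CPM for Fer1HCH and 2292 against 1552 CPM for Fer2LCH. The calls of these 3 genes held when any 1 tumor was left out, and the exact permutation test over the 5 tumors gave p = 0.0625, the smallest it allows, for each.

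The glutathione S-transferase genes GstD5 (2.29, adjusted p = 0.0213) and GstD2 (1.98, adjusted p = 0.0161) were higher in MtnE-positive cells, 2 of 6 oxidative stress genes tested. Without Tind4 both lost their call (adjusted p = 0.137 for GstD5 and 0.156 for GstD2 by edgeR). Further higher genes were CG15422 (3.46), CG14302 (3.31, but 180.6 against 266 CPM in Tgrp), CG13482 (2.19), Pi3K21B (1.16), a regulatory subunit of PI3 kinase, and the heat-inducible RNA lncRNA:Hsromega (1.05). Lower genes were Df31 (122 CPM against 443 CPM with no overlap, -1.51), path (-1.37), CNBP (-1.01) and alphaTub84B (-0.79). The call of path was lost without Tind1 (adjusted p = 0.172 by edgeR) and without Tind4 (0.269), and Df31 was not tested in either case. Of 10 glycolysis genes 0 were called by edgeR and 0 by DESeq2 (3 at an unadjusted p under 0.05 by edgeR), with a list median of 0.56 against 0.11 for all genes. Without Tind4 the count of called genes was 11, and without Tind2 80.

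Markers moved with these classes too. Stem cell and enteroblast markers summed lower in MtnE-positive cells in 5 of 5 tumors (98.9, 403 and 711 CPM against 552.5, 1097 and 1346 CPM). Enterocyte markers summed higher in 4 of 5 tumors (771, 1155 and 17480 CPM against 399, 771 and 968 CPM), and enteroendocrine markers in 3 of 5 (0, 105 and 9295 CPM against 0, 28.6 and 105 CPM). The metallothionein-rich Tind2 cell described above, 1 of 11 MtnE-positive cells there, held 207 Jon65Aiii, 88 alphaTry and 55 Jon65Aiv UMIs. The enteroendocrine markers pros, AstC, NPF, CCHa1, CCHa2 and Mip were at 0 in positive cells, as were the enterocyte markers Jon99Ci and LManVI. Dividing-cell genes summed higher in 1 of 5 (237, 590 and 1094 CPM against 598, 793 and 1290 CPM). The median mitochondrial percent per cell was lower in MtnE-positive cells in 4 of 5 tumors, with 6.59 against 6.80 in Tind1, 3.46 against 5.55 in Tind4, 8.01 against 10.6 in Tind5 and 6.06 against 8.38 in Tind6, and higher in Tind2 (7.45 against 5.63). Their part in the differences was not tested.

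**Figure D5:**
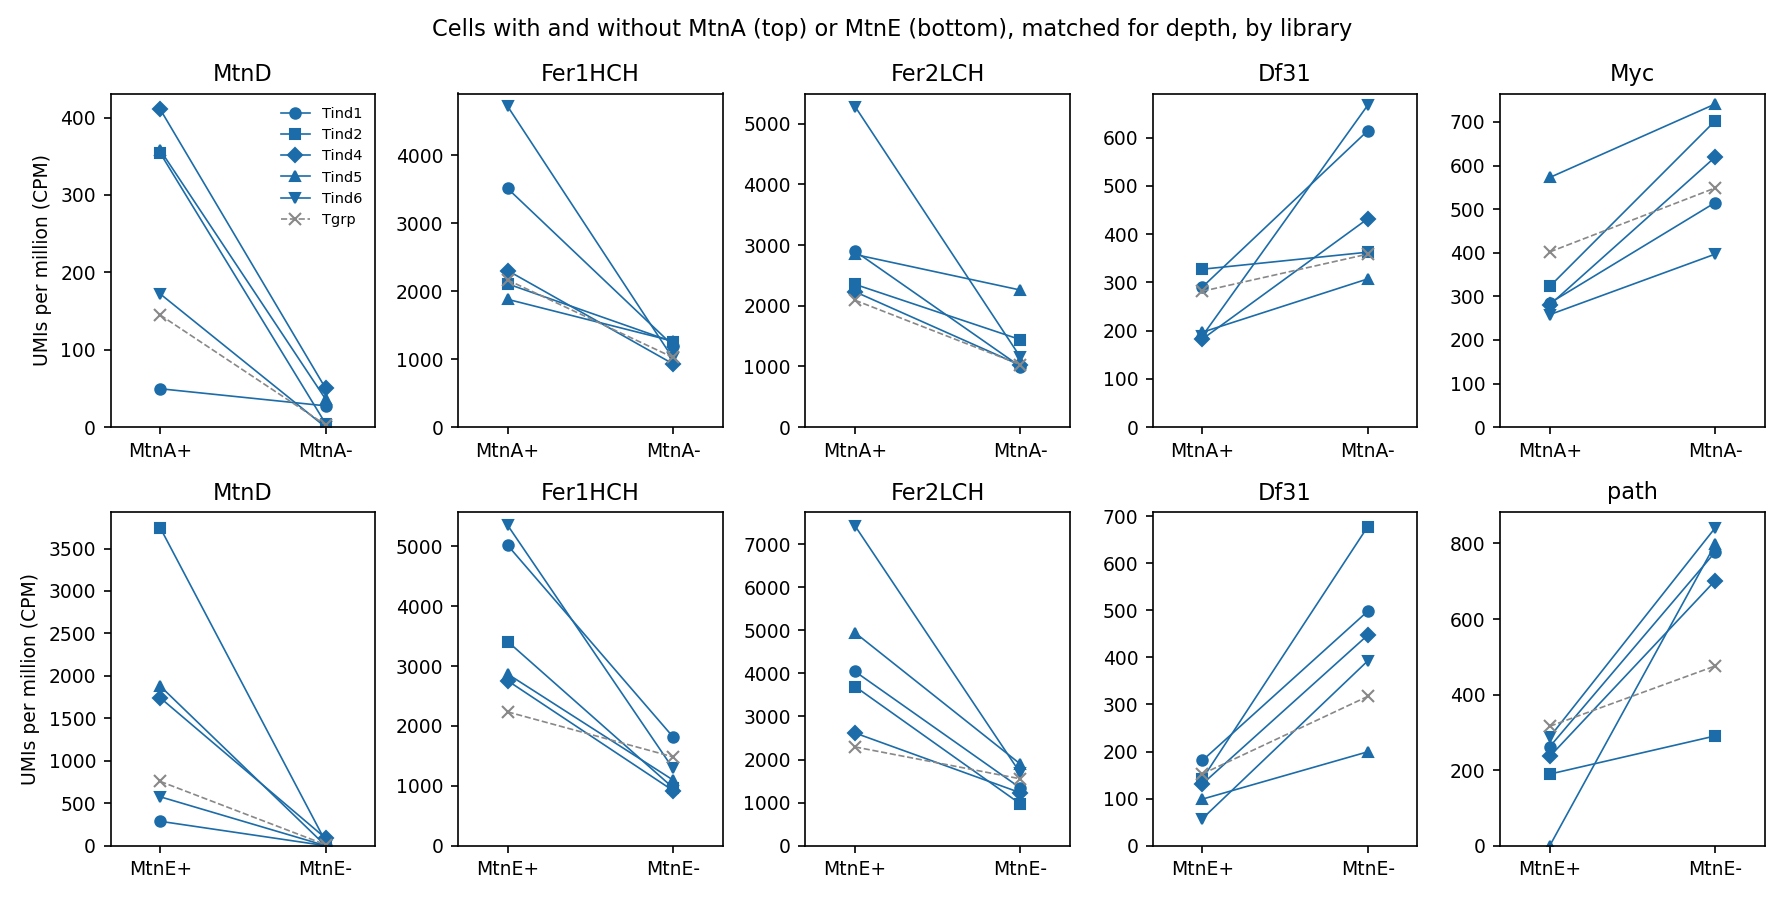
Levels in CPM (linear scales) of MtnD, both ferritin genes and the lower genes in depth-matched cells, above for MtnA and below for MtnE. In each panel 1 line per library joins positive and negative cells (Tgrp gray and dashed). MtnD, Fer1HCH and Fer2LCH are higher in MtnE-positive cells of all 5 tumors, and Df31 is lower.

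Whether cells with MtnA alone differ from cells with MtnE alone could not be tested at 300 UMIs, since only Tind1 had 10 or more cells with MtnE alone (14, beside 273 with MtnA alone). With classes from all UMIs and depth-matched cells, chosen after seeing the data, Tind1 and Tind4 could be compared. Of 732 genes, 3 were higher (0.41%) and 13 lower (1.78%) in MtnA-only than in MtnE-only cells by edgeR. MtnD was the member left to compare and was lower by 5.77 on the log2 scale in MtnA-only cells (adjusted p = 2.83e-05 by edgeR). Of the MtnE-only cells, 1 of 27 in Tind1 held 33 MtnD UMIs and 1 of 11 in Tind4 held 26. DESeq2 called 0 genes (23 at an unadjusted p under 0.05), with an adjusted p of 0.105 for MtnD, so the call depends on the test.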

How the data were processed

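The authors aligned and counted the 10x Chromium 3′ v3.1 reads with Cell Ranger 6.0.1 on genome release 6.42 and deposited filtered tables of UMI counts, raw and per gene and cell. Gene IDs were matched to symbols for 17556 of 17619 entries. The 5 genes, the marker lists and the tests were chosen with earlier results of these data known. Kept cells were thinned to 300 UMIs (seed 1) to set classes, and cells were clustered with Seurat 5.3.0 (2000 variable genes without the 5 members, 30 components, resolution 0.8). All UMIs of a class were then added up within each tumor, and the sums were compared with edgeR 4.0.16 (quasi-likelihood, TMM, filterByExpr, tumor as a block, since both classes come from the same tumor), with Benjamini-Hochberg adjustment over all genes tested. The gene that set the classes was left out, and Tgrp entered no test. Named genes were the 10 of largest log2 difference in each direction among those called, of 1 sign in every tumor and with a mean of at least 50 CPM, besides the metal-handling list and 3 genes of a cluster rich in MtnA. The block, the depth of the draw, the filters, DESeq2 1.42.0, left-out tumors and single cells were varied. Other software was Python 3.11.15, numpy 2.4.6, scipy 1.17.1 and R 4.3.3. The tests were tried on simulated data.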

Additional observations from a re-analysis of the deposited data

Results flagged for a closer look

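In a search for single tumors far from the others, 11 sets of 5 or 6 values were examined and 3 had such a value, where chance gives about 1 in 20. MtnB reached 108.8 CPM in Tind4, with 5.54 CPM in the next tumor, and 177 of its 241 UMIs there were in 1 cell. MtnC reached 16.44 CPM in Tind2, with 5.97 CPM in the next tumor, and all 20 UMIs were in 1 cell. The share of cells with MtnD at 300 UMIs was 2.93% in Tind6, or 8 of 273 cells, with 1.04% in the next tumor.

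The 1916 deposited cells outside the filter on genes and mitochondrial UMIs also held metallothionein UMIs, namely 2391 of MtnA, 451 of MtnE, 271 of MtnD and 4 of MtnB. As CPM this was 398 for MtnA in these cells against 614 in the kept cells, 75.1 against 156 for MtnE, 45.1 against 59.5 for MtnD and 0.666 against 19.5 for MtnB.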

How the results depend on the processing

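Depth and single cells limited these results, since 6 tumors were available, Tind3 had 2 MtnA-positive cells and only Tind1 and Tind4 had 10 MtnE-positive cells at 300 UMIs. The 100 genes that differed between MtnA-positive and MtnA-negative cells became 196 at 600 UMIs per cell, 348 with classes from all UMIs, 249 with a mitochondrial limit of 30%, 225 with another random seed (92 of the 100 were among them), 33 with DESeq2 (17 higher, 16 lower; 22 shared) and 2 without the replicate block. Leaving out 1 tumor gave 44 (36 higher, 8 lower, without Tind4) to 96. The 18 genes of the MtnE comparison became 36 at 600 UMIs, 72 with classes from all UMIs, 33 in depth-matched cells, 6 with a mitochondrial limit of 30%, 9 with another seed, 6 without the richest cell of each tumor, 6 with DESeq2 and 0 without the replicate block (352 at an unadjusted p under 0.05 by edgeR). In the MtnE comparison the log2 difference of MtnB turned to -0.64 without those cells. The ratio of found to expected cells with MtnA and MtnE ranged between 3.12 with all UMIs and 8.25 with another seed, was 4.07 without the richest cells, and 5.15 to 6.98 with 1 tumor left out. At 600 UMIs the mean shares were 12.0% for MtnA, 2.09% for MtnE, 2.33% for MtnD and 0.0785% for MtnC. Between MtnA-only and MtnE-only cells of Tind1 and Tind4, edgeR called 22 higher and 47 lower genes at 600 UMIs, 13 and 36 with all UMIs, and 1 and 7 with a mitochondrial limit of 30%. For the MtnE comparison, 150 UMIs per cell and the removal of the 5% deepest cells left too few tumors for a test, and no tumor could be left out. The causes were not tested.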
